A study of Homo sapiens with 12 samples.

Results

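The MYC-MAX-MXD network comprises the helix-loop-helix leucine zipper factors that share the partner MAX, or its relative MLX, and compete for the same DNA sites. Its members were taken by gene symbol from the deposited expression tables of an IGF2BP1 knockdown study, namely MYC, MYCN, MAX, MXD1, MXD3, MXD4, MXI1, MNT, MGA and MLX, 10 of the 58174 genes that each table lists. Poly-A RNA was sequenced from Hep-G2, derived from a hepatoblastoma, and BE(2)-C, derived from a neuroblastoma, both established human cell lines. IGF2BP1 is an mRNA-binding protein made mainly in embryonic tissue and in tumors, and the comparison of its depletion with a control asks which transcripts depend on it. Cells received either a control siRNA with a nematode microRNA sequence (siC) or a pool of siRNAs against IGF2BP1 (siI1), with a dose of 15 nM for Hep-G2 and 25 nM for BE(2)-C, and were harvested after 72 h. Each of the 4 groups had 3 libraries, which the study's methods call biological replicates, 12 libraries in all.

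MYC and MYCN activate transcription as heterodimers with MAX at E-boxes, DNA sites with the core CACGTG, and drive genes of ribosome production, nucleotide synthesis and growth. The MXD proteins, MXI1, MNT and MGA also pair with MAX at these sites and recruit corepressors, so the outcome depends on which partner holds MAX. MYC is widely active in liver tumors, and amplification of MYCN marks a high-risk class of neuroblastoma.

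The reads counted on genes ranged from 13398903 to 15176939 per Hep-G2 library and from 12852988 to 15721210 per BE(2)-C library. Expression is given as FPKM, fragments scaled to gene length in kilobases and to library size, so that levels of different genes could be set side by side within a table. The length is the value listed for each gene, whichever transcript forms were present, so comparisons between genes are approximate. The tables of the cell lines were normalized separately. All 10 hepatocyte markers examined reached 1 FPKM in every Hep-G2 library and 0 of 10 in any BE(2)-C library, and all 10 neuroblast markers did so in every BE(2)-C library and 0 of 10 in any Hep-G2 library. IGF2BP1 (ENSG00000159217, chr17:48997385-49056145, plus strand, GRCh38) stood at 48.5, 46.6 and 50.8 FPKM in Hep-G2 given siC and at 12.6, 10.7 and 10.7 in Hep-G2 given siI1. The BE(2)-C libraries had 21.3, 20.6 and 21.6 FPKM with siC and 4.85, 4.75 and 4.87 with siI1. The target was thus low in every library labelled as its knockdown, by a log2 fold change of −2.10 (SE 0.08) for Hep-G2 and −2.11 (SE 0.05) for BE(2)-C. Replicate 1 of the Hep-G2 siI1 group stood apart: its root-mean-square log2 difference was 0.295 from replicate 2 and 0.303 from replicate 3, against 0.189 between the latter pair and 0.195 to 0.251 within the other groups. Without it the log2 fold change of IGF2BP1 in Hep-G2 was −2.18. Over all 55 named genes called in Hep-G2, 51 were called in the same direction without it, the exceptions being MLXIP, PCGF6, CAD and CDK9.

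In Hep-G2, 9 of the 10 members were expressed enough to be tested, and 5 of these fell upon IGF2BP1 knockdown (MYC, MAX, MXD1, MGA and MLX), while MXD3 and MXD4 rose and MXI1 and MNT did not pass the test. All 10 were tested in BE(2)-C; MXD3 fell, MXD4 and MXI1 rose, and the other 7 did not pass the test. A gene was called where its adjusted p lay below 0.05 in limma over all genes tested in that line. Lower members made up 55.6% of those tested in Hep-G2, against 23.0% of all 19436 genes tested there, and higher members 22.2%, close to the 21.9% of all genes. For BE(2)-C the share of lower members was 10.0%, against 14.8% of all 18656 genes, and 2 of 10 members were higher, against 13.3% of all genes. All members code for protein, and 55.9% of the protein-coding genes tested were called in either direction in Hep-G2 and 35.4% in BE(2)-C. Without replicate 1 of the Hep-G2 siI1 group the counts were again 5 lower and 2 higher, whereas 3 members were lower without siC replicate 1, siC replicate 3, siI1 replicate 2 or siI1 replicate 3, since the calls of MGA and MLX were then lost, and 4 without siC replicate 2, where that of MLX was lost. Fold changes are on the log2(FPKM + 0.1) scale, which understates those of genes with few reads, and as RNA came from bulk cultures, fewer cells with a transcript and less of it per cell cannot be told apart.

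**Figure D1:**
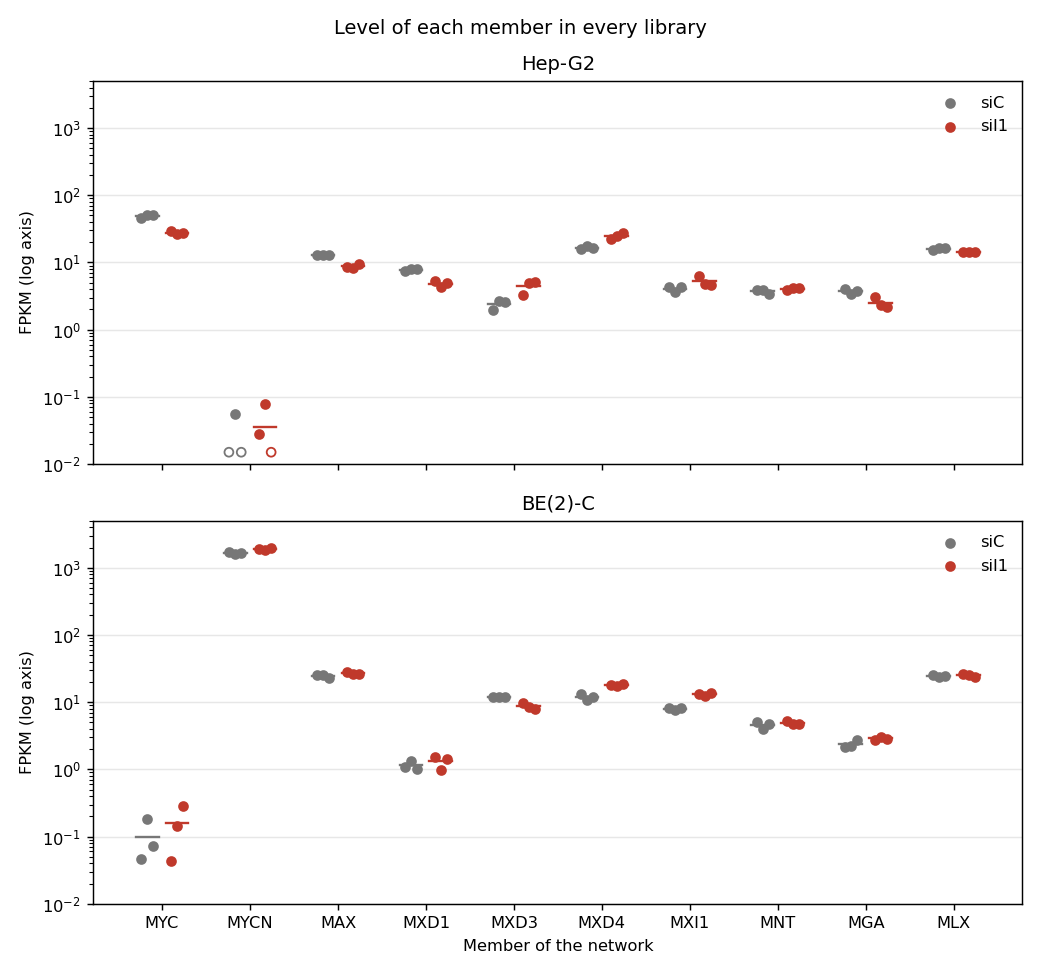
FPKM of the 10 members on a log axis, a point per library and a bar per group mean, for siC and siI1 in each cell line; open circles at the bottom are libraries at 0. MYC lay between 46.2 and 50.7 with siC and between 26.3 and 28.9 with siI1 in Hep-G2, and MYCN between 1619.9 and 1955 in BE(2)-C.

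The scaling of the libraries bears on these directions. When FPKM sums were set equal across libraries, the median log2 fold change of all genes tested in Hep-G2 moved by −0.15, and higher genes made up 35.4% of those called, against 48.8% with the deposited scaling. Centring each library on its median moved the share the other way, to 57.6%, and the median by 0.08. With equal sums the log2 fold changes in Hep-G2 were −0.999 for MYC, −0.73 for MAX, −0.86 for MXD1, −0.72 for MGA, −0.32 for MLX, 0.69 for MXD3 and 0.40 for MXD4, each called. MNT alone among the Hep-G2 members changed sign, from 0.14 to −0.02. As the scaling shifts nearly all genes alike, taking off the median of all genes returns values near the deposited ones by construction, such as −0.17 for MLX and 0.13 for MNT, and is no test of them.

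MYC (ENSG00000136997, chr8:127735434-127742951, plus strand), the archetype of the activators, stood at 46.2, 50.4 and 50.7 FPKM in Hep-G2 given siC and at 28.9, 26.3 and 27.4 in Hep-G2 given siI1. Every knockdown library lay well below every control library. The mean fell from 49.1 ± 2.52 to 27.5 ± 1.297 FPKM (SD, n = 3), a log2 fold change of −0.83 (SE 0.06, adjusted p = 7.7e-05), and was −0.87 without siI1 replicate 1. At least 1099 reads lay behind each of these values. The BE(2)-C libraries had 2, 7 and 3 reads of MYC with siC and 2, 6 and 12 with siI1, or between 0.0431 and 0.288 FPKM. The groups overlapped, and at this depth the interval of the log2 fold change ran from −0.82 to 1.43 around 0.31 (95% CI, adjusted p = 0.68).

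MYCN (ENSG00000134323, chr2:15940550-15947007, plus strand), the activator amplified in many neuroblastomas, was by far the most abundant member in BE(2)-C, at 1688, 1619.9 and 1671 FPKM with siC and at 1879.9, 1855 and 1955 with siI1. Each knockdown library lay above each control library. The log2 fold change of 0.19 (95% CI 0.05 to 0.34, adjusted p = 0.057) did not pass the threshold; it did so under 5 other settings, among them both other scalings (adjusted p = 0.031 with median centring and 0.016 with equal sums) and limma-voom on the reads (adjusted p = 1.6e-04). In Hep-G2, MYCN had between 0 and 3 reads per library and was not tested. Each line therefore transcribed one of the activators at a high level and the other at or near the limit of detection.

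MAX (ENSG00000125952, chr14:65006174-65102695, minus strand), the partner that activators and repressors share, stood at 12.9, 13.0 and 12.8 FPKM in Hep-G2 given siC and at 8.50, 8.29 and 9.42 in Hep-G2 given siI1. The control libraries were nearly alike and all knockdown libraries were lower. MAX fell by 32.3%, with a log2 fold change of −0.56 (SE 0.07, adjusted p = 5.8e-04), or −0.54 without siI1 replicate 1. The values were 25.2, 25.1 and 23.0 FPKM in BE(2)-C with siC and 27.8, 26.6 and 26.5 with siI1. All knockdown libraries were higher here, by a log2 fold change of 0.14 (95% CI 0.02 to 0.26, adjusted p = 0.087) that did not pass the threshold, while it did under median centring (adjusted p = 0.041) and equal sums (adjusted p = 0.038). FNTB lies on the opposite strand and shares 822 exonic bases with MAX; its log2 fold change was −0.26 for Hep-G2 and −0.19 for BE(2)-C, neither called. The strand setting of the read counting was not given in the sources used here. Whether reads from genes on the opposite strand entered the values of a member is therefore not known.

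Promoter sequences from RefSeq on GRCh38.p14, each from 250 bases before to 50 bases after an annotated start, had entries for 9 of the 10 members; MYC had none. The E-box core CACGTG, a palindrome that reads the same on both strands, was present in a promoter entry of MXD4, MNT and MLX, beginning 238, 193 and 50 bases before the start. It was found in 7.26% of all 35116 promoter entries, in 8.77% of the 27305 genes with an entry and in 12.3% of the 11357 of these tested in either line. These promoters are shown because they are the members' windows that hold the motif, given in capitals and read 5′ to 3′ on the strand of the gene, at chr4:2262060-2262359 (minus strand) for MXD4, chr17:2401011-2401310 (minus strand) for MNT and chr17:42566850-42567149 (plus strand) for MLX.
MXD4: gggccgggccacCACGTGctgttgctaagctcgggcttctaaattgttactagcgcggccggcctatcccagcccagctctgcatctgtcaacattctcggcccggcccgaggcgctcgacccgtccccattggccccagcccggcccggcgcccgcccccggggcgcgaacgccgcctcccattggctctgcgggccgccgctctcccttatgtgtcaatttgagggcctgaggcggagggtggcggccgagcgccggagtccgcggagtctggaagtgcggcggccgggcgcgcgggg
MNT: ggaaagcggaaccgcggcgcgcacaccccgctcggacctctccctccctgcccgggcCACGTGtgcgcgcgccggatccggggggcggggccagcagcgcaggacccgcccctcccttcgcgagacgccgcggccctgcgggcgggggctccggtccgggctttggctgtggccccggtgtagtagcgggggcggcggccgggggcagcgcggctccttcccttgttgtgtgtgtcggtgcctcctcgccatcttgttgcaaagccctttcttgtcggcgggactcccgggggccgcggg
MLX: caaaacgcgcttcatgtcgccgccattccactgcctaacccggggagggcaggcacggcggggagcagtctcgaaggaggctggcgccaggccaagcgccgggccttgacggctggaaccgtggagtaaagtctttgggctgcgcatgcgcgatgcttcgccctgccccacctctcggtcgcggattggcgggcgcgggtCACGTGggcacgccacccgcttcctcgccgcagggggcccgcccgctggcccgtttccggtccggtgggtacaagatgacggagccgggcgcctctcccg

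MXD4 (ENSG00000123933, chr4:2247432-2262109, minus strand), an MXD repressor found in differentiating cells and the first of the promoters shown, rose in both lines. It stood at 15.7, 17.4 and 16.4 FPKM with siC and at 22.1, 24.3 and 27.3 with siI1 in Hep-G2. Its level was 13.0, 10.7 and 11.9 FPKM in BE(2)-C with siC and 17.9, 17.6 and 18.6 with siI1. In neither line did a knockdown library reach down to the controls. The log2 fold change was 0.57 (SE 0.09, adjusted p = 0.0018) in Hep-G2, 0.64 without siI1 replicate 1, and 0.60 (SE 0.08, adjusted p = 0.0018) in BE(2)-C. The difference of −0.03 between the lines had a 95% CI of −0.29 to 0.23, and was −0.22 (adjusted p = 0.095) with equal sums.

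MXI1 (ENSG00000119950, chr10:110207605-110287365, plus strand), also known as MAD2 and a repressor of MYC targets, stood at 8.32, 7.60 and 8.09 FPKM with siC and at 13.3, 12.2 and 13.8 with siI1 in BE(2)-C. The groups were far apart relative to their spread, and the log2 fold change was 0.71 (SE 0.07, adjusted p = 6.5e-04). In Hep-G2 it stood at 4.32, 3.58 and 4.31 FPKM with siC and at 6.28, 4.80 and 4.68 with siI1. These groups did not overlap either, but replicate 1 of siI1 was well above the others, and the log2 fold change of 0.35 (95% CI 0.02 to 0.68, adjusted p = 0.079) was not called; it became 0.22 (adjusted p = 0.13) without that library. The call was made with median centring (0.44, adjusted p = 0.038) and with limma-voom (adjusted p = 0.040), whereas with equal sums the value was 0.19 (adjusted p = 0.41).

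MXD3 (ENSG00000213347, chr5:177301461-177312757, minus strand), the MXD repressor associated with cells in S phase, moved in opposite directions in the lines. In Hep-G2 it stood at 1.95, 2.65 and 2.55 FPKM with siC and at 3.24, 4.90 and 5.11 with siI1, so that replicate 1 of siI1 was the closest to the controls. The log2 fold change was 0.85 (SE 0.20, adjusted p = 0.014), and 1.05 (adjusted p = 0.0017) without that library. BE(2)-C had 11.9, 12.1 and 11.8 FPKM with siC and 9.71, 8.39 and 7.94 with siI1. All knockdown libraries were lower, with a log2 fold change of −0.46 (SE 0.08, adjusted p = 0.0060). RAB24, on the same strand, shares 926 exonic bases with MXD3 and rose in Hep-G2 (log2 fold change 1.08, adjusted p = 0.0029) but not in BE(2)-C (−0.02, adjusted p = 0.90), and PRELID1, on the opposite strand, shares 1148 (0.33 and −0.23, called in BE(2)-C only). The values of MXD3 are therefore uncertain where the counting could assign reads to either neighbor, and the part of these genes in its change was not tested.

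MXD1 (ENSG00000059728, chr2:69897688-69942945, plus strand), the repressor induced in many cells as they leave the cycle, stood at 7.33, 8.10 and 7.996 FPKM with siC and at 5.27, 4.24 and 4.86 with siI1 in Hep-G2. The knockdown libraries were all lower, with a log2 fold change of −0.70 (SE 0.10, adjusted p = 0.0013), or −0.77 without siI1 replicate 1. MXD1 was scarce in BE(2)-C, at 1.10, 1.34 and 1.01 FPKM with siC and 1.52, 0.980 and 1.45 with siI1. These groups overlapped, and the 95% CI of the log2 fold change of 0.17 ran from −0.31 to 0.64 (adjusted p = 0.59).

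MNT (ENSG00000070444, chr17:2384073-2401104, minus strand), a large repressor present in dividing and resting cells alike and the next of the promoters shown, lay between 3.39 and 3.87 FPKM with siC and between 3.91 and 4.23 with siI1 in Hep-G2. The groups did not overlap but lay close together, and the log2 fold change of 0.14 (95% CI −0.07 to 0.35, adjusted p = 0.24) was not called, nor was that of 0.17 without siI1 replicate 1. The BE(2)-C ranges of 4.004 to 5.004 and 4.75 to 5.19 FPKM overlapped, with a log2 fold change of 0.10 (95% CI −0.13 to 0.33, adjusted p = 0.47). An annotated gene on the opposite strand shares 1065 exonic bases with MNT, and whether reads from it were counted for MNT is not known.

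MGA (ENSG00000174197, chr15:41621134-41773081, plus strand), a very large MAX partner that joins a variant Polycomb complex, stood at 4.08, 3.42 and 3.71 FPKM with siC and at 3.04, 2.32 and 2.20 with siI1 in Hep-G2. All knockdown libraries were lower, replicate 1 of siI1 the least so. The log2 fold change was −0.56 (SE 0.14, adjusted p = 0.018) and −0.70 (adjusted p = 0.0026) without that library. The call was lost without siC replicate 1 (adjusted p = 0.066), siC replicate 3 (adjusted p = 0.054), siI1 replicate 2 (adjusted p = 0.059) or siI1 replicate 3 (adjusted p = 0.056). Levels in BE(2)-C were 2.18, 2.25 and 2.76 FPKM with siC and 2.72, 3.08 and 2.87 with siI1. The groups overlapped and the log2 fold change of 0.27 (95% CI −0.01 to 0.54, adjusted p = 0.14) was not called, though limma-voom called it (adjusted p = 0.0097).

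MLX (ENSG00000108788, chr17:42567072-42573239, plus strand), which takes the place of MAX in a parallel branch that senses glucose and whose promoter is the last of those shown, stood at 15.3, 16.3 and 16.2 FPKM with siC and at 14.4, 14.3 and 14.4 with siI1 in Hep-G2. The knockdown libraries were nearly identical and just below the controls, with a log2 fold change of −0.15 (SE 0.05, adjusted p = 0.047). This call is at the edge of the threshold: with equal sums it was −0.32 (adjusted p = 0.0040), but it was lost with median centring (−0.06, adjusted p = 0.37), no filter on low values (adjusted p = 0.051), no mean-variance trend in limma (adjusted p = 0.13) and limma-voom (adjusted p = 0.094), and without siC replicate 1 (adjusted p = 0.063), siC replicate 2 (adjusted p = 0.14), siC replicate 3 (adjusted p = 0.15), siI1 replicate 2 (adjusted p = 0.12) or siI1 replicate 3 (adjusted p = 0.11), but not without siI1 replicate 1 (adjusted p = 0.040). MLX lay between 23.6 and 26.0 FPKM in all 6 BE(2)-C libraries, and its log2 fold change of 0.03 had a 95% CI of −0.11 to 0.16. PSMC3IP, on the opposite strand, shares 775 exonic bases with MLX and fell in both lines (log2 fold changes −0.60, adjusted p = 0.0029, and −0.43, adjusted p = 0.0035).

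Among the partners of MLX are MLXIP and MLXIPL, also known as MondoA and ChREBP. MLXIPL, which switches on sugar and lipid synthesis genes in liver, stood at 21.1, 21.5 and 19.4 FPKM with siC and at 39.4, 43.8 and 43.0 with siI1 in Hep-G2. Its level about doubled in every knockdown library, with a log2 fold change of 1.02 (SE 0.07, adjusted p = 4.8e-05; 1.07 without siI1 replicate 1), while BE(2)-C libraries had 0 to 3 reads of it. MLXIP passed the test narrowly in both lines, at 0.22 on the log2 scale for Hep-G2 (adjusted p = 0.043) and 0.20 for BE(2)-C (adjusted p = 0.031). With equal sums its Hep-G2 value was 0.05 (adjusted p = 0.67), with no filter it was not called there (adjusted p = 0.052), and with no trend neither line was called (adjusted p = 0.076 and 0.077). In Hep-G2 the adjusted p lay between 0.059 and 0.13 when any 1 of the 6 libraries was left out, and in BE(2)-C between 0.082 and 0.10 when any but siC replicate 1 was left out. MYCL, the third MYC paralog, had at most 7 reads per library in Hep-G2 and 9 to 22 in BE(2)-C, where its log2 fold change of −0.41 had a 95% CI of −1.09 to 0.27.

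Whether the knockdown acted differently on a member in the 2 lines was tested as the difference of its log2 fold changes, Hep-G2 minus BE(2)-C, over the 15362 genes tested in both. The difference was called for 4 of 9 members, against 40.2% of all genes. With the deposited scaling and all libraries, MXD3 had the largest, 1.31 (SE 0.23, adjusted p = 9.5e-04), as it rose in one line and fell in the other. For MXD1 it was −0.86 (SE 0.22, adjusted p = 0.0096), for MGA −0.83 (SE 0.19, adjusted p = 0.0050) and for MAX −0.70 (SE 0.08, adjusted p = 5.7e-05), each lower in Hep-G2 and not called in BE(2)-C. For MYC, with few reads in BE(2)-C, the difference of −1.139 (95% CI −2.10 to −0.17, adjusted p = 0.059) was not called. It was called with a pseudocount of 1 (−0.88, adjusted p = 1.1e-04), with equal sums (−1.32, adjusted p = 0.034), from separate fits of the lines (adjusted p = 0.039) and without BE(2)-C siI1 replicate 1 (−1.50, adjusted p = 0.0063). For MXI1 the difference of −0.35 (adjusted p = 0.10) was called without Hep-G2 siI1 replicate 1 (−0.49, adjusted p = 0.0075) or siC replicate 2 (−0.44, adjusted p = 0.047), with equal sums (−0.54, adjusted p = 0.042) and from separate fits (adjusted p = 0.047). For MLX that of −0.18 (adjusted p = 0.075) was called with equal sums (−0.36, adjusted p = 0.0017), from separate fits (adjusted p = 0.041) and without BE(2)-C siC replicate 1 (−0.21, adjusted p = 0.043) or siI1 replicate 3 (−0.22, adjusted p = 0.040). MNT differed by 0.04 (95% CI −0.25 to 0.32). Without Hep-G2 siI1 replicate 1 the differences that had been called were 1.51 for MXD3, −0.93 for MXD1, −0.96 for MGA and −0.68 for MAX.

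**Figure D2:**
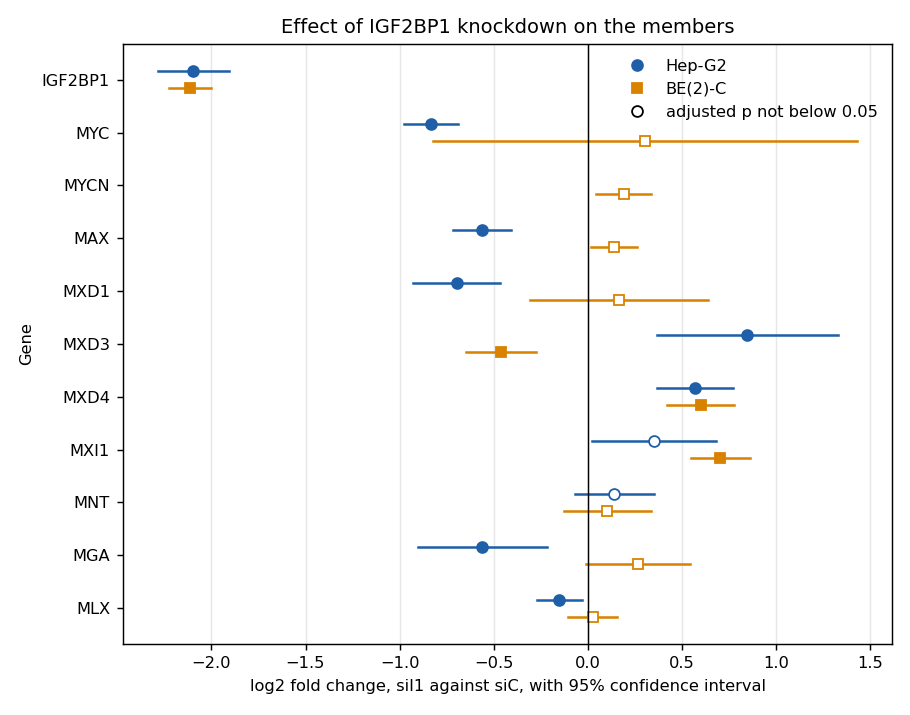
Log2 fold change of each member upon knockdown, siI1 over siC, with its 95% CI in each cell line; open symbols did not pass the threshold, and MYCN was not tested in Hep-G2. MXD4 lies at 0.57 and 0.60, whereas MXD3 lies at 0.85 in Hep-G2 and −0.46 in BE(2)-C.

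Ordered by level in the siC libraries, MYC led in Hep-G2 at 49.1 FPKM, followed by MXD4 at 16.5 and MLX at 15.96, whose ranges overlapped, MAX at 12.9 and MXD1 at 7.81. MXI1 at 4.07, MGA at 3.73 and MNT at 3.70 overlapped in turn, and MXD3 at 2.38 and MYCN came last. With siI1, MYC at 27.5 and MXD4 at 24.6 FPKM overlapped, followed by MLX at 14.4 and MAX at 8.74; MXI1, MXD1, MXD3 and MNT each overlapped with the next, and MGA lay below them at 2.52. The order with siC in BE(2)-C was MYCN at 1659.5 FPKM, then MLX at 24.6 and MAX at 24.4, overlapping, MXD3 and MXD4, both at 11.9 and overlapping, MXI1 at 8.002, MNT at 4.57, MGA at 2.40, MXD1 at 1.15 and MYC at 0.10. With siI1 the order below MYCN became MAX, MLX, MXD4, MXI1 and MXD3, with no overlap between neighbors; MXD3 had overlapped with MXD4 and lain above MXI1 in the controls and lay below both with siI1.

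The summed level of the activators and of the 6 repressors set these changes against each other, as a description with no test. In Hep-G2, MYC plus MYCN went from 49.1 ± 2.54 to 27.6 ± 1.27 FPKM, and the repressors went from 38.2 ± 0.868 to 45.6 ± 2.30 (SD, n = 3). The repressors per activator lay between 0.756 and 0.807 with siC and at 1.52, 1.70 and 1.76 with siI1, the lowest of the latter being replicate 1. The repressor sum was thus below the activator sum in each control library and above it in each knockdown library. This order rests on the listed gene lengths, such as 3001 nt for MYC and 7058 nt for MXD4. Which transcript forms were present was not determined, so the order of the sums is uncertain. MXD4 supplied 43.2% ± 1.29 of the repressor sum with siC and 53.8% ± 3.07 with siI1. Without replicate 1 the siI1 means were 26.9 FPKM for the activators, 46.5 for the repressors and 55.4% for MXD4. The BE(2)-C activator sum stood at 1659.6 ± 35.3 with siC and 1897 ± 52.1 with siI1, and the repressor sum at 39.9 ± 1.77 and 48.9 ± 1.76. The ratio there was 0.0241 and 0.0258, and activators outnumbered MAX 68.0-fold and 70.5-fold, against 3.80-fold and 3.16-fold in Hep-G2 (3.04-fold without siI1 replicate 1), ratios taken within each table.

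**Figure D3:**
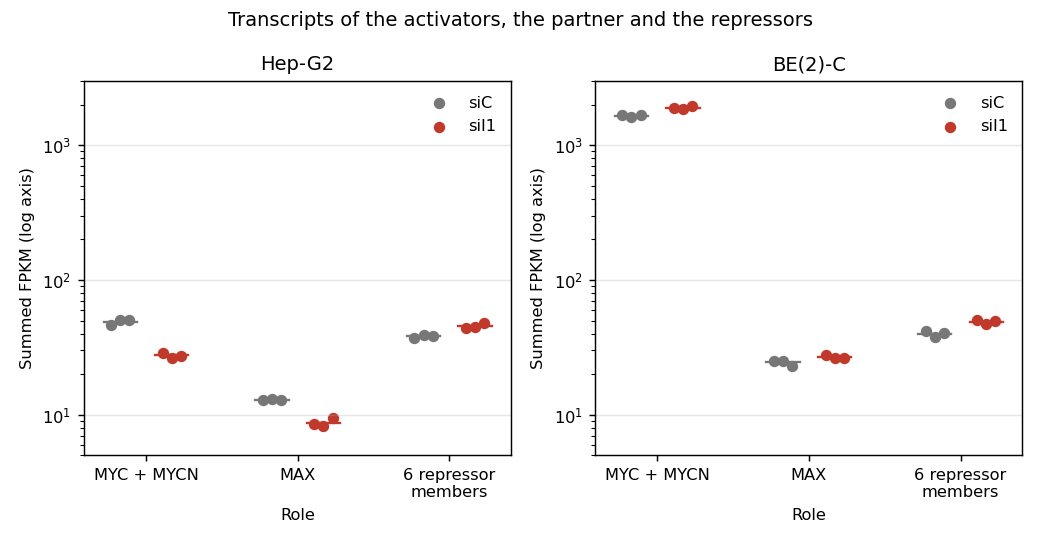
Summed FPKM of MYC and MYCN and of the 6 repressors in each library, by siRNA and cell line. In Hep-G2 the activator sum lies above the repressor sum with siC (49.1 against 38.2) and below it with siI1 (27.6 against 45.6). This order in Hep-G2 rests on the listed gene lengths and is uncertain. In BE(2)-C the activator sum lies far above in all 6 libraries.

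Transcripts from the loci of the activators were examined next. PVT1 (chr8:127794526-128187101, plus strand), a long noncoding RNA downstream of MYC, stood at 2.09, 1.92 and 1.68 FPKM with siC and at 3.19, 3.84 and 3.72 with siI1 in Hep-G2. It rose while MYC fell, with a log2 fold change of 0.88 (SE 0.13, adjusted p = 0.0014), or 0.96 without siI1 replicate 1. PVT1 lay between 1.83 and 2.18 FPKM in all 6 BE(2)-C libraries, with a log2 fold change of 0.08 (95% CI −0.18 to 0.34), and the difference between the lines was 0.80 (SE 0.16, adjusted p = 0.0022), or 0.88 without that library. CCAT1, another long noncoding RNA, had 622, 459 and 565 reads with siC and 75, 62 and 57 with siI1 in Hep-G2 (log2 fold change −2.94, adjusted p = 1.1e-05; −3.07 without siI1 replicate 1) and was listed at 0 in BE(2)-C. MYCNOS, antisense to MYCN with 98 shared exonic bases, lay between 85.8 and 102 FPKM in BE(2)-C, where its log2 fold change was 0.07 (95% CI −0.11 to 0.25), and was listed at 0 in Hep-G2. CASC11, antisense to MYC, had at most 1 read per library, and MYCNUT was listed at 0 in all 12.

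Of 45 genes that MYC is known to activate, 30 fell and 2 rose in Hep-G2, with a median log2 fold change of −0.37. Of the 44 tested in BE(2)-C, 13 fell and 3 rose, with a median of −0.13. Among all protein-coding genes tested, 30.5% were lower and 25.3% higher in Hep-G2, with a median of −0.04, and 19.9% and 15.5% in BE(2)-C, with a median of −0.01. The ribosome biogenesis factor BYSL went from 26.7 ± 0.723 to 15.85 ± 0.0916 FPKM in Hep-G2 (log2 fold change −0.75, adjusted p = 4.2e-05) and fell in BE(2)-C too (−0.44, adjusted p = 0.0040). GNL3, the nucleolar GTPase nucleostemin, went from 32.8 ± 0.644 to 17.3 ± 1.145 FPKM (−0.92, adjusted p = 5.4e-05). HK2, the hexokinase of many tumors, showed the largest drop of the list there, from 6.94 ± 0.137 to 1.99 ± 0.311 FPKM (−1.77, adjusted p = 6.8e-05), yet rose in BE(2)-C from 17.4 ± 0.312 to 19.8 ± 1.10 FPKM (0.19, adjusted p = 0.037). The latter call was lost without any BE(2)-C library but siI1 replicate 3 (adjusted p = 0.051 to 0.11), and with no filter (adjusted p = 0.0501) or no trend (adjusted p = 0.11). Without Hep-G2 siI1 replicate 1, 30 of the list were lower and 2 higher there, the 2 not being the same pair of genes, as CAD was no longer called.

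The exceptions in Hep-G2 were the methyltransferase FBL, which modifies ribosomal RNA (0.38, adjusted p = 0.012), and CAD, which starts pyrimidine synthesis (0.18, adjusted p = 0.048). The value of FBL ran from 0.21 to 0.47 over the alternatives. The call of CAD in Hep-G2 was lost without any 1 of the 6 libraries (adjusted p = 0.066 to 0.14) and with equal sums (0.02, adjusted p = 0.90), no filter (adjusted p = 0.055), no trend (adjusted p = 0.097) or limma-voom (adjusted p = 0.0501). Among those that fell in BE(2)-C, the smallest p were those of SHMT2, of mitochondrial one-carbon metabolism (−0.62, adjusted p = 7.6e-04), the folate carrier SLC19A1 (−0.54, adjusted p = 0.0011) and PA2G4, a growth regulator (−0.33, adjusted p = 0.0026). CAD rose in BE(2)-C, from 33.6 ± 3.62 to 46.9 ± 0.825 FPKM (0.48, adjusted p = 0.0045), as did the transferrin receptor TFRC (0.31, adjusted p = 0.0044), which fell in Hep-G2 (−1.30, adjusted p = 7.8e-05). The log2 fold changes of SHMT2, SLC19A1 and PA2G4 in Hep-G2 were −0.40, −0.80 and −0.41, each called. The number of lower targets in BE(2)-C was 8 without siI1 replicate 3, and that of higher targets in Hep-G2 was 1 when any library but siI1 replicate 1 was left out. The E-box core was present in the promoter entries of 24 of the 36 activated targets that have one, against 1392 of 11357 tested genes with an entry; the list consists of known MYC targets.

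Of 13 genes that MYC is known to repress, 12 were tested in each line, of which 3 fell and 2 rose for Hep-G2 while 5 fell and 2 rose for BE(2)-C, at medians of −0.08 and −0.29. The lower share lay below the 30.5% of all protein-coding genes in Hep-G2 and, at 41.7%, above their 19.9% in BE(2)-C, and the higher share was 16.7% in each line, against 25.3% and 15.5%. Their values ran widely in both directions. The cell cycle inhibitor CDKN1A went from 5.87 ± 0.294 to 0.863 ± 0.117 FPKM in BE(2)-C (log2 fold change −2.64, adjusted p = 8.6e-05), whereas in Hep-G2 its log2 fold change of 0.17 was not called. Another inhibitor, CDKN2B, which has an antisense transcript, went from 11.3 ± 0.207 to 2.22 ± 0.144 FPKM in Hep-G2 (−2.30, adjusted p = 4.8e-06). NGFR, a neurotrophin receptor, fell in Hep-G2 from 2.39 ± 0.198 to 1.08 ± 0.106 FPKM (−1.09, adjusted p = 7.8e-04) and rose in BE(2)-C from 1.01 ± 0.0562 to 5.18 ± 0.332 (2.25, adjusted p = 8.5e-05). The crosslinking enzyme TGM2 fell in Hep-G2 (−1.44, adjusted p = 1.4e-05), where the matrix protein THBS1 (0.96, adjusted p = 9.3e-05) and the ferritin chain FTH1, a gene with many processed copies (0.85, adjusted p = 0.0028), rose. The chaperone CLU (−1.27, adjusted p = 8.6e-05) and the secreted DKK3 (−0.84, adjusted p = 9.5e-04) fell in BE(2)-C. With equal sums 5 were lower in Hep-G2, and with median centring or limma-voom 4 were higher. Without Hep-G2 siI1 replicate 1, 4 of the list were higher there, and without BE(2)-C siI1 replicate 2 or 3, 1 was higher.

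**Figure D4:**
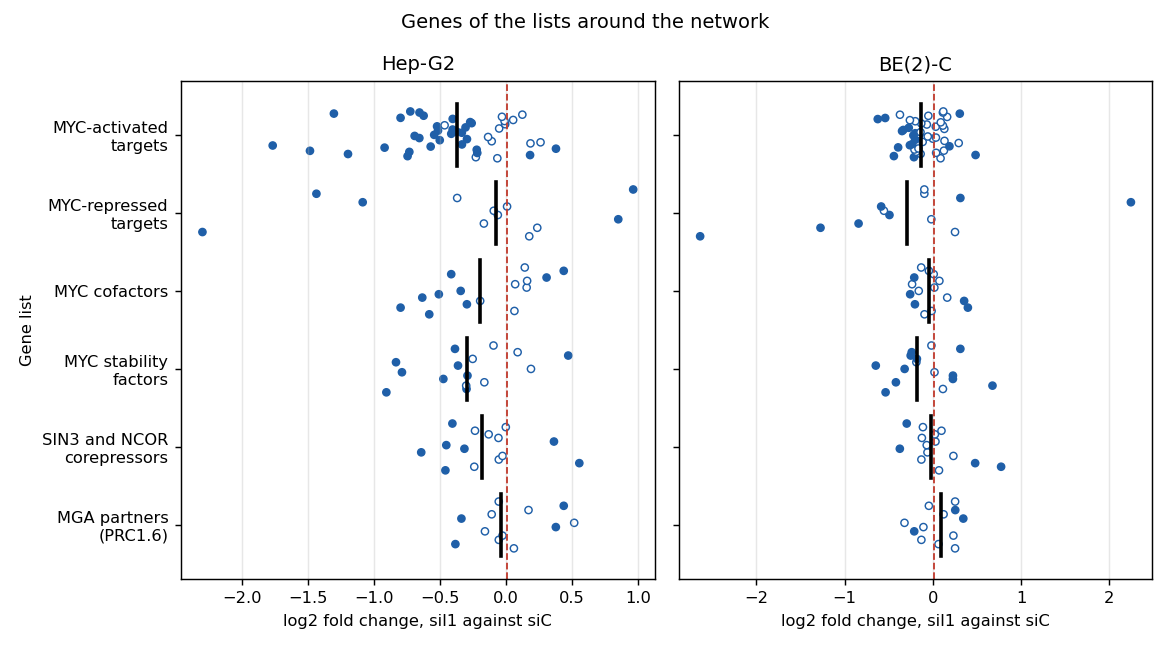
Log2 fold changes of the genes of each list, a point per gene, filled where called, with the list median as a black bar and the median of all tested genes as a red dashed line; the x axes differ between the cell lines. The activated targets have a median of −0.37 for Hep-G2 and −0.13 for BE(2)-C, against 0.01 and 0.02 for all genes.

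Cofactors through which MYC activates, 15 genes of acetyltransferase complexes and transcription elongation, were lower for 7 and higher for 2 in Hep-G2 and lower for 3 and higher for 2 in BE(2)-C, with medians of −0.20 and −0.04. Their lower share was 46.7% in Hep-G2, above the 30.5% of all protein-coding genes, and their higher share of 13.3% was below the 25.3%. Those in BE(2)-C, 3 of 15 lower and 2 of 15 higher, lay close to the background of 19.9% and 15.5%. CCNT1, the cyclin of the elongation kinase, went from 5.43 ± 0.204 to 3.15 ± 0.849 FPKM in Hep-G2 (−0.80, adjusted p = 0.010) and from 5.96 ± 0.838 to 7.83 ± 0.310 in BE(2)-C (0.40, adjusted p = 0.031). ACTL6A (−0.58, adjusted p = 0.0027) and HCFC1 (−0.34, adjusted p = 0.0024) fell in Hep-G2, where WDR5 rose (0.44, adjusted p = 0.0035). The value of WDR5 in Hep-G2 ran from 0.27 to 0.53 over the alternatives. RUVBL2, a helicase subunit, rose in Hep-G2 (0.31, adjusted p = 0.035) and fell in BE(2)-C (−0.21, adjusted p = 0.038). EP400 (−0.26, adjusted p = 0.022) and CDK9 (−0.20, adjusted p = 0.036) also fell in BE(2)-C, and the acetyltransferase CREBBP rose (0.36, adjusted p = 0.0067). EP400 (−0.51, adjusted p = 0.041) and CDK9 (−0.30, adjusted p = 0.030) were called lower in Hep-G2 as well, EP400 not without any library but siI1 replicate 1 (adjusted p = 0.052 to 0.12) and CDK9 not without siC replicate 1 or 2 or siI1 replicate 1 or 3 (adjusted p = 0.057 to 0.091). Both of the latter calls were also lost with median centring or no trend, and that of EP400 with no filter. Several of these calls lay near the threshold. That of RUVBL2 in Hep-G2 was lost without any library but siI1 replicate 1 (adjusted p = 0.051 to 0.11) and with equal sums (0.14, adjusted p = 0.12), and in BE(2)-C without siC replicate 1 or 2 or siI1 replicate 2 or 3 (adjusted p = 0.057 to 0.12). The BE(2)-C call of CCNT1 was lost without siC replicate 2 or any siI1 replicate (adjusted p = 0.051 to 0.097), that of EP400 without siC replicate 1 or 3 or siI1 replicate 2 or 3 (adjusted p = 0.052 to 0.080), and that of CDK9 without any library but siC replicate 3 (adjusted p = 0.062 to 0.10). With no trend none of the BE(2)-C calls of RUVBL2, CCNT1, EP400 and CDK9 nor that of RUVBL2 in Hep-G2 was made (adjusted p = 0.052 to 0.11), with no filter only that of EP400 was (adjusted p = 0.052 to 0.065 for the others), and with median centring those of RUVBL2 (adjusted p = 0.075) and CDK9 (adjusted p = 0.083) in BE(2)-C were lost. The counts varied with the libraries used: 3 or 4 were lower in Hep-G2 without siC replicate 1 or 3 or siI1 replicate 2 or 3, and 4 were higher without siI1 replicate 1 and 1 without any other. In BE(2)-C, 0 were lower without siC replicate 1, siI1 replicate 2 or siI1 replicate 3, and 1 was higher without siC replicate 2 or any siI1 replicate.

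Among 15 genes that govern the stability of MYC proteins, Hep-G2 had 8 lower and 1 higher, and BE(2)-C 7 lower and 4 higher, with medians of −0.30 and −0.18. Some of these genes protect MYC proteins and others lead to their destruction, so the counts give no direction for that stability. The lower shares of 53.3% and 46.7% exceeded the protein-coding background of 30.5% and 19.9%, while the higher share was 6.67% against 25.3% for Hep-G2 and 26.7% against 15.5% for BE(2)-C. The kinase AURKA, which shields MYCN from degradation, fell in both lines, from 36.7 ± 0.116 to 19.6 ± 0.931 FPKM in Hep-G2 (−0.91, adjusted p = 2.9e-05) and from 43.4 ± 0.674 to 30.0 ± 2.22 in BE(2)-C (−0.54, adjusted p = 0.0011). FBXW7, the ubiquitin ligase subunit that marks MYC proteins for destruction, rose in BE(2)-C from 1.47 ± 0.0336 to 2.41 ± 0.0863 FPKM (0.68, adjusted p = 0.0029). So did the deubiquitinase USP36 (0.31, adjusted p = 0.0061) and the ligase HUWE1 (0.23, adjusted p = 0.023), while the kinase PLK1 fell (−0.65, adjusted p = 5.2e-04). For Hep-G2 the same genes were called lower, USP36 at −0.39 (adjusted p = 0.0025), HUWE1 at −0.29 (adjusted p = 0.048) and PLK1 at −0.36 (adjusted p = 0.0030). In Hep-G2 the phosphatase subunit PPP2R5A (−0.83, adjusted p = 0.0018) and KIAA1524, also known as CIP2A, an inhibitor of the same phosphatase (−0.79, adjusted p = 0.0019), fell, and the ligase STUB1 rose (0.47, adjusted p = 0.018), which fell in BE(2)-C (−0.25, adjusted p = 0.018). In Hep-G2 STUB1 was not called without siC replicate 3, siI1 replicate 2 or siI1 replicate 3 (adjusted p = 0.054 to 0.060), leaving 0 higher, and 11 genes were lower and 2 higher without siI1 replicate 1. HUWE1 was not called without any 1 of the BE(2)-C siI1 replicates (adjusted p = 0.055 to 0.083) or with no trend (adjusted p = 0.078). In Hep-G2 its call was lost without siC replicate 1 or 3 or siI1 replicate 2 or 3 (adjusted p = 0.13 to 0.14) and with a pseudocount of 0.01 (adjusted p = 0.051), no filter (adjusted p = 0.076), median centring (−0.20, adjusted p = 0.14) or no trend (adjusted p = 0.096). The BE(2)-C call of STUB1 was lost without siI1 replicate 2 or 3 (adjusted p = 0.067 and 0.051) and with no trend (adjusted p = 0.066). In BE(2)-C, 4 were lower without siI1 replicate 2 or 3 and 2 were higher without any of the siI1 replicates.

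The corepressors that MXD proteins recruit, 14 genes of the SIN3 and NCOR complexes, were lower for 5 and higher for 2 in Hep-G2 and lower for 2 and higher for 2 in BE(2)-C, with medians of −0.18 and −0.02. With equal sums 9 were lower in Hep-G2. For lower genes the shares were 35.7% and 14.3%, against a protein-coding background of 30.5% and 19.9%, and for higher genes 14.3% in each line, against 25.3% and 15.5%. BRMS1L rose in both lines (0.55, adjusted p = 0.0048, and 0.48, adjusted p = 0.016). RBBP4 (−0.45, adjusted p = 0.0011) and NCOR1 (−0.64, adjusted p = 0.0073) fell and RBBP7 rose (0.36, adjusted p = 0.0038) in Hep-G2. The value of RBBP7 in Hep-G2 ran from 0.20 to 0.45 over the alternatives. In BE(2)-C, SUDS3 fell (−0.30, adjusted p = 0.015), as it did in Hep-G2 (−0.41, adjusted p = 0.011), and ARID4B rose (0.77, adjusted p = 0.0033). SUDS3 was not called in BE(2)-C without siI1 replicate 1 or 2 (adjusted p = 0.052 for each), nor BRMS1L in BE(2)-C without siI1 replicate 3 (adjusted p = 0.058). Of 12 partners of MGA in its Polycomb complex, Hep-G2 had 2 lower and 2 higher, and BE(2)-C 1 lower and 2 higher, with medians of −0.04 and 0.09. Both Hep-G2 shares, 16.7%, lay below that background, as did the lower share of 8.33% in BE(2)-C, and the higher share of 16.7% there was close to it. The Hep-G2 counts varied with the scaling, with 1 partner lower and 5 higher under median centring but 4 lower and 1 higher under equal sums. RNF2, its ubiquitin ligase, fell in Hep-G2 (−0.34, adjusted p = 0.023) and rose in BE(2)-C (0.35, adjusted p = 0.016). E2F6 fell (−0.38, adjusted p = 0.0035) and PCGF6 rose (0.38, adjusted p = 0.033) in Hep-G2, and L3MBTL2 fell (−0.21, adjusted p = 0.043) and TFDP1 rose (0.25, adjusted p = 0.0078) in BE(2)-C. The call of RNF2 was lost in Hep-G2 without any library but siI1 replicate 1 (adjusted p = 0.058 to 0.078) and with median centring (−0.25, adjusted p = 0.067), and in BE(2)-C without siI1 replicate 1 or 2 (adjusted p = 0.057 and 0.052). That of PCGF6 was lost without siC replicate 1 or 3 or siI1 replicate 1 or 2 (adjusted p = 0.064 to 0.10) and with equal sums (0.21, adjusted p = 0.23), no filter (adjusted p = 0.053) or no trend (adjusted p = 0.064). That of L3MBTL2 was lost without any library but siC replicate 2 (adjusted p = 0.071 to 0.14) and with no filter, no trend, median centring or equal sums. Of the MGA partners, 1 was lower in Hep-G2 without any library but siI1 replicate 1, and 1 was higher without siC replicate 1, siC replicate 3 or siI1 replicate 2. In BE(2)-C, 0 of them were lower without any library but siC replicate 2, 4 were higher without siC replicate 2 and 1 without siI1 replicate 1 or 2. Of the corepressors in BE(2)-C, 1 was lower without siI1 replicate 1 or 2 and 1 higher without siI1 replicate 3.

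Markers of cell identity moved along with these changes. The summed level of the 10 hepatocyte markers in Hep-G2, led by ALB, lay between 7591 and 7659 FPKM with siC and between 12127 and 13821 with siI1; 6 rose, among them APOA1 (1.70, adjusted p = 2.8e-04), ALB (0.95, adjusted p = 0.0032) and FOXA2 (0.47, adjusted p = 0.0011), and 2 fell, TTR (−0.77, adjusted p = 0.0029) and AFP (−0.59, adjusted p = 0.0029). Of the 10 neuroblast markers in BE(2)-C, led by CHGA and summing to between 1952 and 2159 FPKM with siC and between 2069 and 2204 with siI1, 3 rose and 4 fell. CHGB (0.82, adjusted p = 1.3e-04), TH (0.61, adjusted p = 0.0037) and CHGA (0.39, adjusted p = 0.0079) rose, whereas HAND2 (−0.73, adjusted p = 1.7e-04) and PHOX2A (−0.40, adjusted p = 0.0042) fell. Of the protein-coding genes tested in Hep-G2, 25.3% were higher and 30.5% lower. For BE(2)-C this background was 15.5% higher and 19.9% lower. The 5 fibroblast markers, led by LUM, summed to between 10.7 and 11.6 FPKM with siC and between 20.7 and 22.0 with siI1 in BE(2)-C, with LUM (1.08), DCN (0.66) and PDGFRA (1.58) higher, and to at most 1.302 in any Hep-G2 library. Higher fibroblast markers made up 60.0% in BE(2)-C, against 15.5% of all protein-coding genes. PDGFRA was near the floor there, at 0.0677 FPKM with siC and 0.403 with siI1. Its log2 fold change ran from 0.39 to 2.54 over the alternatives. The 4 leukocyte markers summed to at most 1.21 FPKM in any library, led by CD79A, which was lower with siI1 in Hep-G2 (−1.34, adjusted p = 0.013), and the 3 endothelial markers to at most 0.237. Of the neuroblast markers 2 could be tested in Hep-G2, where CHGB, at 0.387 FPKM with siC, was lower (−0.79, adjusted p = 0.037). It had 10 to 29 reads per library there, and CD79A 5 to 27. The call of CHGB was lost without any library but siI1 replicate 1 (adjusted p = 0.072 to 0.11) and with no filter (adjusted p = 0.086), and CD79A was not called without siC replicate 1 (adjusted p = 0.0502). ALB was not called where no filter was applied (adjusted p = 0.073). Single markers that could be tested elsewhere, a hepatocyte and a leukocyte gene in BE(2)-C and a fibroblast and an endothelial gene in Hep-G2, were not called. The part of these markers in the changes of the network was not tested.

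By the smallest root-mean-square difference of centred log2 values, the protein-coding genes most like MYC over all 12 libraries were SLC22A4 (0.23), ZBED9 (0.27) and ERCC5 (0.29), out of 11083. As the few reads of MYC in BE(2)-C weigh on that measure, the 6 Hep-G2 libraries were also taken alone, a choice made after seeing the data, and gave PMAIP1 (0.03), QSOX2 (0.04) and TCF7L2 (0.04) out of 12822. For MYCN over the 6 BE(2)-C libraries they were GOLGA2 (0.01), PPWD1 (0.02) and SLC11A2 (0.02) out of 12599.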

How the data were processed

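Poly-A RNA was sequenced strand-specifically with paired 150 nt reads. Per the labels and methods, the authors clipped reads with cutadapt 1.14, aligned them to hg38 with HISAT2 2.1.0, processed alignments with SAMtools 1.5, counted reads per Ensembl gene with featureCounts 1.5.3 (strand setting not given in the sources used here) and compared groups with edgeR 3.30.3. The authors deposited FPKM values of every library, those of each line in a file of its own; the unit was inferred from the values. The tables' own log2 fold changes, p-values and FDR were not used. FPKM times gene length, divided in each library by its smallest such product above 0, gave whole numbers within 0.01 for 100% of values above 0. These whole numbers were taken as reads and are given beside some of the low values.

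Here, genes reaching 0.1 FPKM in 3 or more of a line's 6 libraries were tested with limma 3.58.1 in R 4.3.3 (read with its package data.table, 1.17.8) in 2-sided comparisons on log2(FPKM + 0.1) within a line, letting the variance follow the mean and adjusting p by Benjamini-Hochberg across the genes tested, at 0.05; the difference between lines was an interaction term. An exact permutation of 3 libraries against 3 cannot give a p below 0.1. The fit was tested on simulated data, where false calls fell mostly on genes with few reads and made up more of the calls than the threshold allows for, so that calls of such genes are less certain. Tables and plots used Python 3.11.15, NumPy 2.4.6, pandas 2.3.3 and Matplotlib 3.10.9. Named were all members, IGF2BP1, the remaining MYC and MLX partner genes, 5 transcripts of the MYC and MYCN loci, the 3 called genes per list, line and direction with the smallest p, and the 3 protein-coding genes most like MYC and MYCN; some genes of the lists are not reported here by name. Lists of MYC targets, cofactors, stability factors, corepressors, MGA partners and cell type markers were written from general knowledge; members and lists were chosen with earlier results of these data known. Overlaps of exons were taken from GENCODE 44, whose GRCh38 gene models differ from those counted. Alternatives covered pseudocount, filter, scaling, trend, threshold, limma-voom on reads, the replicate number as a block, separate fits for the difference and leaving out each library. The separate fits took p from a normal distribution of the difference over its combined SE. With so few libraries this gives smaller p than a t distribution, so calls made only there are less certain.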

Additional observations from a re-analysis of the deposited data

Results flagged for a closer look

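The test of the difference of effects, Hep-G2 log2 fold change minus that of BE(2)-C, called the genes given here with that difference. It called 40.2% of all genes tested in both lines and 4 of 9 members. Of the 47 picked list genes tested in both lines, 34 were called, not all reported here by name. They had been picked for a small p within a line, which favors a difference between the lines, so their share is not a result. Among members and locus transcripts these were MAX (−0.70), MXD1 (−0.86), MXD3 (1.31), MGA (−0.83) and PVT1 (0.80). Among the activated targets, they were BYSL (−0.30), GNL3 (−0.76), HK2 (−1.95), FBL (0.58), CAD (−0.30) and TFRC (−1.61). Among the repressed targets, they were CDKN2B (−2.55), TGM2 (−1.34), NGFR (−3.33), FTH1 (0.86), CDKN1A (2.81) and CLU (1.51). Among the cofactors, they were ACTL6A (−0.49), CCNT1 (−1.20), WDR5 (0.48), RUVBL2 (0.52) and CREBBP (−0.55). Among the stability factors, they were AURKA (−0.37), PPP2R5A (−0.65), KIAA1524 (−0.81), STUB1 (0.72), PLK1 (0.28), FBXW7 (−0.98), USP36 (−0.70) and HUWE1 (−0.52). Among the corepressors, they were RBBP4 (−0.38), NCOR1 (−0.58), RBBP7 (0.33) and ARID4B (−1.02). Among the partners of MGA, they were E2F6 (−0.45), RNF2 (−0.68) and PCGF6 (0.48). Among the neuroblast markers, it was CHGB (−1.62). Some of these calls depended on single libraries or settings. The difference of PCGF6 was not called without any 1 of Hep-G2 siC replicates 1 and 3, Hep-G2 siI1 replicates 1 and 2, BE(2)-C siC replicate 2 and BE(2)-C siI1 replicates 1 and 2 (adjusted p = 0.058 to 0.10), nor with equal sums (0.30, adjusted p = 0.23), no filter (adjusted p = 0.063) or no trend (adjusted p = 0.064). That of CAD was lost without Hep-G2 siC replicate 3, Hep-G2 siI1 replicate 2 or 3 or BE(2)-C siI1 replicate 1 or 2 (adjusted p = 0.055 to 0.073) and with median centring (−0.25, adjusted p = 0.063) or no trend (adjusted p = 0.055). That of NCOR1 was lost without Hep-G2 siC replicate 1, Hep-G2 siI1 replicate 2 or 3, BE(2)-C siC replicate 1 or BE(2)-C siI1 replicate 3 (adjusted p = 0.051 to 0.053). That of PLK1 was lost without Hep-G2 siC replicate 1 or siI1 replicate 2 (adjusted p = 0.053 and 0.052) and was 0.10 with equal sums (adjusted p = 0.26), where that of RBBP7 was 0.14 (adjusted p = 0.067). CHGB had less than 1 FPKM in every Hep-G2 library, and WDR5 belongs to 2 of the lists. CDKN2B had 13 to 15 reads per library with siC and 17 to 20 with siI1 in BE(2)-C. Its difference ran from −2.73 to −2.01 over the alternatives. No cause of these differences was tested.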

How the results depend on the processing

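Each count and value was recomputed under the alternatives; the cause of a change was not tested. At an adjusted p of 0.01, 4 members were called in Hep-G2, 3 lower and 1 higher, with 0 activated targets higher there and 8 lower in BE(2)-C. Leaving out 1 library gave 3 to 5 lower members in Hep-G2. In Hep-G2, 1 activated target was higher with no filter, equal sums, no trend and limma-voom, and leaving out 1 library gave 1 to 2. In BE(2)-C, 5 members were called and 4 were higher under median centring, equal sums and limma-voom; 7 activated targets were lower with no trend and 8 to 13 when 1 library was left out (8 without siI1 replicate 3), and 5 were higher with limma-voom. Over all network lists together, 10 genes were higher in Hep-G2, 18 with median centring, 5 at 0.01 and 6 to 15 with 1 library left out (6 without siC replicate 3 or siI1 replicate 2). Lower genes of these lists numbered 55 there, 38 to 74 under other settings and 44 to 58 with 1 library left out. The protein-coding background in that line was 30.5% lower and 25.3% higher. In BE(2)-C 31 genes of the lists were lower, 18 with no trend, 18 at 0.01 and 19 to 28 with 1 library left out (19 without siI1 replicate 2 or 3). Another 15 were higher, 8 at 0.01 and 9 to 14 with 1 left out (9 without siI1 replicate 2). For this line the protein-coding background was 19.9% lower and 15.5% higher. The effect differed between the lines for 7 members with equal sums and for 7 with separate fits.

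The summed MYC and MYCN level with siI1 over siC in Hep-G2 was 0.561, or 0.501 with equal sums and 0.599 with median centring, and that of the repressors 1.20, 1.06 and 1.27; in BE(2)-C the former was 1.143, or 1.17 with median centring. Changes of sign concerned only values that were not called. These were MNT in Hep-G2 (−0.021, equal sums) and MLX in BE(2)-C, which ranged from −0.00176 to 0.067 with 1 library left out and was −0.000928 without siC replicate 2. The others were differences between the lines. That of MXD4 was −0.22 with equal sums, 0.021 with median centring, from −0.11 to 0.040 with 1 library left out, and above 0 without Hep-G2 siC replicate 2, Hep-G2 siI1 replicate 1 or BE(2)-C siC replicate 2. That of MNT was −0.14 with equal sums, from −0.029 to 0.13 with 1 library left out, and below 0 without Hep-G2 siC replicate 3 or BE(2)-C siC replicate 1. For IGF2BP1 it was −0.083 with a pseudocount of 1, −0.17 with equal sums, from −0.064 to 0.056 with 1 library left out, and below 0 without Hep-G2 siC replicate 2 or siI1 replicate 1. For MLXIP it was −0.17 with equal sums, from −0.042 to 0.046 with 1 library left out, and below 0 without Hep-G2 siC replicate 2 or BE(2)-C siC replicate 1.

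Counts of single lists moved as well. Of the cofactors, 7 were lower in Hep-G2, but 4 with no filter, 3 with median centring or no trend and 2 at 0.01, and 2 were higher, but 1 with no filter, equal sums, no trend or 0.01. In the other line 3 were lower, but 1 with no filter or median centring, 0 with no trend or 0.01 and 5 with limma-voom, and 2 higher, but 1 with no filter, no trend or 0.01. Stability genes higher in Hep-G2 numbered 1, but 2 with median centring and 0 at 0.01; the 7 lower and 4 higher in BE(2)-C became 4 and 2 with no trend or at 0.01. Corepressors lower in Hep-G2 numbered 5, but 9 with equal sums and 3 at 0.01; the 2 lower and 2 higher in BE(2)-C became 1 and 1 at 0.01. Of the MGA partners, 2 were lower in Hep-G2, but 4 with equal sums and 1 with median centring or at 0.01, and 2 were higher, but 5 with median centring and 1 with no filter, equal sums, no trend or 0.01. For BE(2)-C the 1 lower became 2 with a filter at 1 FPKM and 0 with no filter, median centring, equal sums, no trend or 0.01, and the 2 higher became 4 with a filter at 1 FPKM, median centring or limma-voom and 1 at 0.01. Of the repressed targets, 3 were lower in Hep-G2, but 5 with equal sums, and 2 were higher, but 4 with median centring or limma-voom; the 2 higher in BE(2)-C became 1 at 0.01.

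Whether the replicate numbers pair the samples is not known, and the main fits did not treat them as pairs. Deviations of same-numbered libraries correlated at 0.33, 0.32 and −0.08 in Hep-G2 and at 0.20, −0.02 and 0.02 in BE(2)-C. Differently numbered libraries were not compared in this way, so these values do not settle it. With the replicate block, 4 members were lower and 3 higher in Hep-G2, where MLX was no longer called (adjusted p = 0.068) and MXI1 was (adjusted p = 0.047). There were 1 lower and 2 higher in BE(2)-C, and 5 differed between the lines; 1 activated target was higher in Hep-G2. MLXIP was called in neither line (adjusted p = 0.053 and 0.056), CAD (adjusted p = 0.074) and CHGB (adjusted p = 0.080) were not called in Hep-G2, nor CDK9 (adjusted p = 0.057), HUWE1 (adjusted p = 0.053) and L3MBTL2 in BE(2)-C, nor the difference of PCGF6 (adjusted p = 0.093), whereas that of MYC was (adjusted p = 0.037); 0 MGA partners were lower in BE(2)-C.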
